A study of Mus musculus with 5 samples.

Results

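The comparison set 3584 cultured dendritic cells (DCs) grown with Ptgs-/- cells of the melanoma line 5555 against 3344 DCs grown without tumour cells. These 6928 cells were chosen by the hashtag condition that the authors gave each cell, and they are part of 10812 cultured cells and of 31635 cells in the whole series. The cells came from C57BL/6 mouse bone marrow that was differentiated with FLT3L and GM-CSF and collected at day 10. A further hashtagged culture of the pool, with 3884 cells, held the same DCs grown with Ptgs+/+ 5555 cells, and its values are given alongside. Both tumour cultures are set against the same untreated culture. Ptgs genes encode the cyclooxygenases, so Ptgs-/- refers to the tumour line, and the DCs of all 3 conditions came from unmodified C57BL/6 marrow as far as the labels say. When the tumour cells were added, in what ratio, and whether contact was possible are not given in the sources used here. Each condition was 1 culture, so no test across cultures was possible, and every difference below compares those cultures. Intervals cover counting error at the 95% level and say nothing of how cultures of 1 condition would vary.

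Dendritic cells take up antigen, mature, move to lymph nodes under the chemokine receptor CCR7 and present antigen to T cells. Conventional type 1 DCs (cDC1s) present antigen from dead cells on MHC class I, type 2 DCs (cDC2s) mainly prime CD4 T cells, and plasmacytoid DCs (pDCs) are known for type I interferon. Prostaglandin E2, a product of cyclooxygenases, acts on DCs through receptors that raise cyclic AMP.

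All 3 conditions were pooled in 1 channel of a droplet assay for 3′ RNA, after a sort for live CD45+ cells, and 30000 cells were loaded. The deposited matrix held 35105379 UMIs in untreated DCs and 32883802 with Ptgs-/- cells, with medians of 9709 and 8805.5 UMIs per cell. The median number of genes per cell was 2442.5 untreated and 2036.5 with Ptgs-/- cells. After thinning each cell to 5000 UMIs it was still 1616 against 1466, with 339 and 487 shallower cells left out. The mitochondrial share of UMIs had a median of 4.48% untreated and 3.47% with Ptgs-/- cells, and ribosomal protein genes took 30.5% and 34.1%. These shifts went the same way in each of the 6 classes, and their part in the gene differences was not tested. Markers of melanocytes and melanoma summed to between 1.75 and 17.9 CPM in any class of either culture. Of the 14 members of that list only 10 were in the matrix, Pmel, Tyr and Dct among them. None of these reached the 10% of cells needed for comparison in any class.

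The authors' annotation divided the cells into 6 classes. Leading genes over the other cultured cells were Ccl22, Ccl5, Fscn1 and Ccr7 in mature DCs (mDC), Mgl2 and Clec4n in cDC2, Cenpf, Mki67 and Top2a in proliferating cDC1, and Siglech and Ly6d in pDC. Tlr3 and Ppt1 were the cDC1 markers among the 10 leading genes of cDC1. The class named proliferating cDC2 had none of the 11 cDC2 markers among its 10 leading genes. Those genes were led by Slpi and Myl10 and included Cox6a2, a pDC marker, Prtn3, a progenitor marker, and Top2a and Stmn1 of the cell cycle. Its summed cDC2 markers were 1137 CPM untreated, and its pDC markers 2211 CPM, so the name is kept here only as the authors' label.

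Mature DCs made up a larger share of the culture with Ptgs-/- cells than of the untreated culture, and a still larger share with Ptgs+/+ cells. Of 3344 untreated cells 214 were mDCs, or 6.4% (exact binomial interval 5.59 to 7.28). Of 3584 cells with Ptgs-/- tumour cells 477 were, or 13.3% (12.2 to 14.5), and with Ptgs+/+ cells the share was 27.3% (25.9 to 28.7). The ratio of Ptgs-/- to untreated was 2.08 (1.78 to 2.43), and counting error does not span the gap. Proliferating cDC1 went the other way, from 28.9% untreated to 19.2% with Ptgs-/- cells and 15% with Ptgs+/+ cells, a ratio of 0.664 (0.61 to 0.724) for Ptgs-/- over untreated. cDC1 made up 34.8% untreated and 29.5% with Ptgs-/- cells, and cDC2 19.8% and 22%.

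Proliferating cDC2 and pDC were also more frequent with Ptgs-/- cells. Proliferating cDC2 made up 4.1% untreated (3.45 to 4.82), 7.25% with Ptgs-/- cells (6.43 to 8.15) and 4.69% with Ptgs+/+ cells. pDC made up 5.98% untreated (5.2 to 6.84), 8.71% with Ptgs-/- cells (7.8 to 9.68) and 5.15% with Ptgs+/+ cells. In both, the culture with Ptgs-/- cells was the high one, and the untreated and Ptgs+/+ intervals overlapped. Shares sum to the whole, and whether a class gained cells or the others lost them cannot be told apart. Genes that define classes, such as Xcr1 and Ccr7, differed between the cultures as well, and their part in the shares was not tested.

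**Figure D1:**
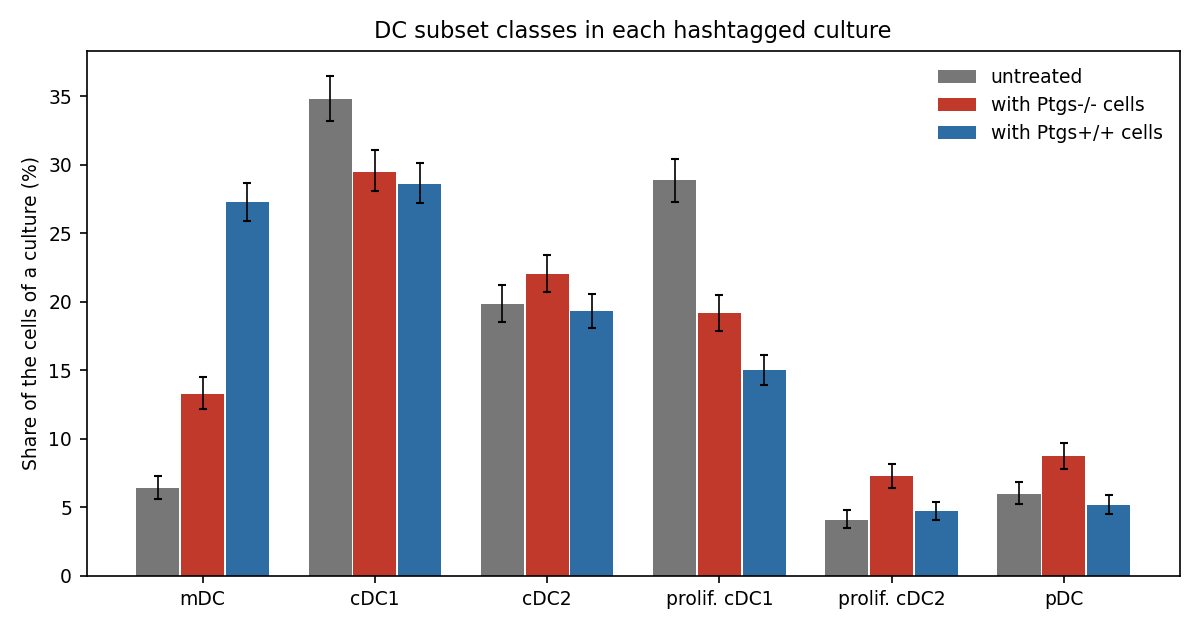
Share of each culture's cells (%) in the 6 DC subset classes, with 1 bar for each hashtagged culture and exact 95% binomial intervals for counting error. The mDC share was 6.4% untreated, 13.3% with Ptgs-/- cells and 27.3% with Ptgs+/+ cells.

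Gene levels were compared as the mean CPM (a cell's UMIs scaled to a common total) over the cells of a class, for genes seen in at least 10% of its cells in either condition. A gene was called higher or lower at a 2-fold difference after 5 CPM was added to both means. Where the median fold of all genes lay over 0.1 log2 units from 0, folds are given relative to that median, which was -0.23 in mDC, -0.16 in cDC1, -0.14 in cDC2 and -0.17 in proliferating cDC1. It was -0.07 in proliferating cDC2 and -0.06 in pDC, where nothing was subtracted. Counts of list members above or below 0 are on this scale. UMI ratios are over the summed UMIs of a class and are not shifted.

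By this rule 46 of 6109 genes were higher in mDC (0.753%) and 114 were lower (1.87%). In cDC1 76 of 5977 were higher (1.27%) and 22 lower (0.368%), and in cDC2 53 of 6833 were higher (0.776%) and 15 lower (0.22%). In proliferating cDC1 81 of 7349 were higher (1.1%) and 29 lower (0.395%). In proliferating cDC2 55 of 7960 were higher (0.691%) and 176 lower (2.21%), and in pDC 60 of 4476 were higher (1.34%) and 65 lower (1.45%). The balance of directions rested on the shift of the median. Without it the counts higher and lower were 12 and 259 in mDC, 49 and 54 in cDC1, 34 and 35 in cDC2, and 49 and 80 in proliferating cDC1.

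**Figure D2:**
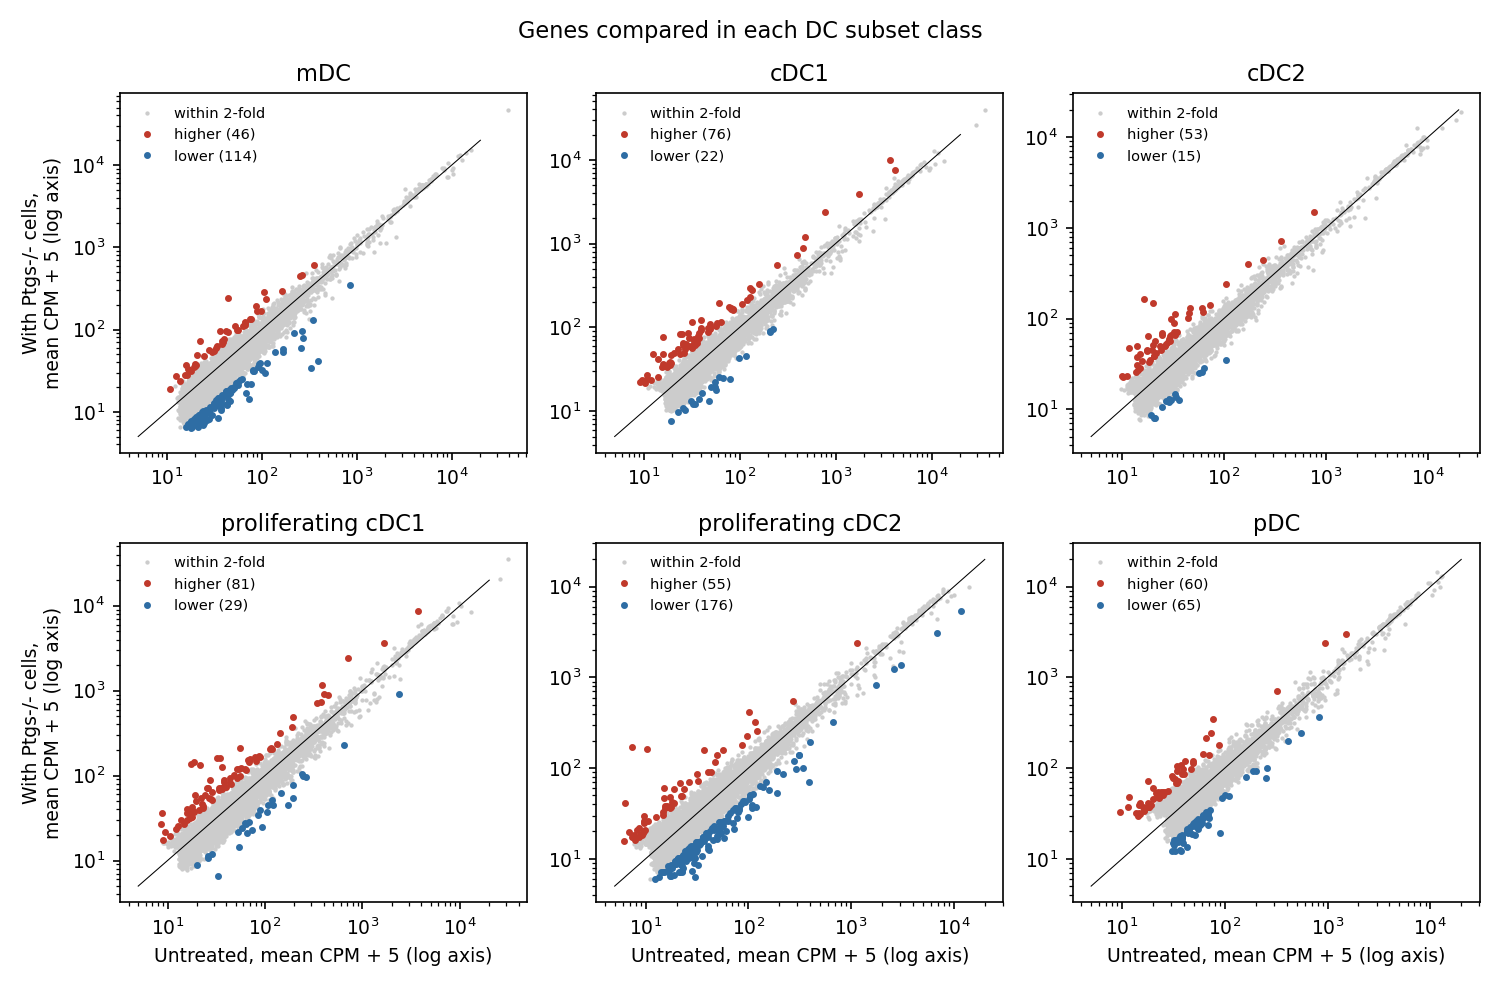
Mean CPM plus 5 with Ptgs-/- cells against untreated on log axes, 1 panel for each class and 1 point for each gene compared. Colours mark genes called higher, called lower or within 2-fold, and the line marks equal levels, with no shift of the median. Higher calls ranged from 46 genes in mDC to 81 in proliferating cDC1.

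Genes that crossed 2-fold in several classes were few. Over the 8519 genes compared in any class, 74 were higher in at least 2 classes, 12 in at least 4 and 2 in 5, and 48 were lower in at least 2 classes, 4 in at least 4 and 2 in 5. None passed in all 6. The 2 genes higher in 5 classes were Rgs1, which shortens signals from G protein-coupled receptors, and Ddit4, a stress-induced inhibitor of mTORC1. The 2 genes lower in 5 classes were Egr1, an immediate-early transcription factor, and Cd180, a TLR4-related receptor. The classes come from the same cultures and the same library, so they are not independent repeats.

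Rgs1 in cDC1 averaged 7.52 CPM untreated, 43 with Ptgs-/- cells and 64.2 with Ptgs+/+ cells. That is 75 against 385 UMIs in the first pair, a UMI ratio of 5.97 (4.65 to 7.75). With 75 UMIs in 1165 untreated cells, Rgs1 passed the filter there only through the culture with Ptgs-/- cells. It therefore had to differ in cDC1, which is 1 of its 5 classes. In cDC2 Rgs1 averaged 9.04, 45.4 and 65 CPM in the same order. At 5000 UMIs per cell it was seen in 2.97% of untreated cDC2s and 12.3% with Ptgs-/- cells. The filter on detection thus favoured a difference there too. Both tumour cultures stood above the untreated culture in these classes, and the one with Ptgs+/+ cells was higher still. In pDC the direction turned, to -0.37, when cells were thinned to 5000 UMIs, which left 53 untreated and 72 Ptgs-/- cells. Ddit4 averaged 35.2 CPM untreated and 71.6 with Ptgs-/- cells in mDC, and 21 and 66 CPM in proliferating cDC1 (ratio 2.93, 2.54 to 3.4).

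Some genes that cyclic AMP is known to induce were higher in cDC1, cDC2 and proliferating cDC1. Crem was among the 6 highest genes in cDC1 and proliferating cDC1 and Nr4a2 in cDC1, and no member of the list was among the 6 highest in cDC2. Crem encodes a cyclic AMP-responsive transcription factor, Nr4a2 an orphan nuclear receptor and Pde4b an enzyme that degrades cyclic AMP. Of the 19 genes in the prostaglandin and cyclic AMP list, 6 were compared in cDC1, with 3 higher and 0 lower and a median log2 fold of 1.04. In cDC2 4 of 8 were higher (median 1.00) and in proliferating cDC1 3 of 9 (median 0.83), with 0 lower in each. Of all genes 1.27% were higher in cDC1, 0.776% in cDC2 and 1.1% in proliferating cDC1. At 5000 UMIs per cell Nr4a2 was seen in 4.06% of untreated cDC2s and 8.92% with Ptgs-/- cells. For Nr4a2 in cDC2 the filter on detection thus favoured a difference. In mDC 1 of 9 was higher (median 0.49), and in proliferating cDC2 0 of 4 were (median -0.53).

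Crem in cDC1 averaged 27.3 CPM untreated, 112 with Ptgs-/- cells and 138 with Ptgs+/+ cells, with 293 against 981 UMIs in the first pair (ratio 3.89, 3.41 to 4.45). In proliferating cDC1 it averaged 27.1, 155 and 181 CPM, and in cDC2 16.2, 52.1 and 43.1 CPM. Both tumour cultures were high and the untreated culture low in these 3 classes. In mDC the values were 76.7, 125 and 127 CPM, a log2 fold of 0.90 for Ptgs-/- over untreated. In pDC Crem was seen in too few cells to compare, at 22.1 CPM untreated and 19.2 with Ptgs-/- cells.

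Nr4a2 and Pde4b followed the same order. Nr4a2 in cDC1 averaged 20.3 CPM untreated, 77.4 with Ptgs-/- cells and 99.9 with Ptgs+/+ cells (ratio 3.39, 2.9 to 3.98, for the first pair). Pde4b in cDC1 averaged 17.9, 50.1 and 54.9 CPM (ratio 2.79, 2.33 to 3.35). Pde4b in mDC did not differ beyond counting error, at 131 CPM untreated and 127 with Ptgs-/- cells (ratio 1.08, 0.914 to 1.28). Nr4a3, a relative of Nr4a2, averaged 249 CPM untreated and 448 with Ptgs-/- cells in mDC, and Fosl2, an AP-1 subunit, 29.8 and 65.3 CPM in cDC2.

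The promoter of Nr4a2 is shown because the gene belongs to the cyclic AMP list and was higher in cDC1, cDC2 and proliferating cDC1. It is the 300-base RefSeq window around the gene's start, from the build GRCm38.p6, at chr2:57123954-57124253 on the minus strand, 5′ to 3′ along the gene, with matches to the half-site of the cyclic AMP response element (TGACG on either strand) in capitals.
Nr4a2: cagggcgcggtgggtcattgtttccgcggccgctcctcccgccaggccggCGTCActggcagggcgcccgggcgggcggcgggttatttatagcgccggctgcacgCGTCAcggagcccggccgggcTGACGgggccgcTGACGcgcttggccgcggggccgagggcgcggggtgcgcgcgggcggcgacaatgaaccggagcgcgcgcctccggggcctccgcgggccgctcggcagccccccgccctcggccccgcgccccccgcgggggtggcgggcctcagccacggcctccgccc
It holds 4 matches. Of 16 list genes with a window in the table, 7 (43.8%) held TGACG on either strand in at least 1 window, against 23% of all 27025 genes. Nr4a2, Nr4a3 and Pde4b were among the 7, and Crem and Fosl2 were not. The full element TGACGTCA was in 1 of 16 (6.25%), against 2.03% of all genes. A match describes letters, and no binding was measured.

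The receptors and enzymes of the prostaglandin pathway in the DCs themselves did not reach 2-fold in any class where they were compared. Ptger4, a receptor for prostaglandin E2, averaged 67.7 CPM untreated and 82.4 with Ptgs-/- cells in mDC. In cDC1 it averaged 17.6 and 13.3 CPM, a log2 fold of -0.14. Ptger2, another such receptor, was below the 10% needed for comparison in every class. Ptgs1, the constitutive cyclooxygenase, averaged 85.5 CPM in untreated cDC2, 113 with Ptgs-/- cells and 170 with Ptgs+/+ cells. Ptgs2, the inducible cyclooxygenase, was not compared in any class and had 6 UMIs in untreated mDCs and 47 with Ptgs-/- cells.

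In mDC the gene with the highest fold was Il12b, which encodes the p40 subunit of IL-12 and IL-23. It averaged 38.8 CPM untreated, 239 with Ptgs-/- cells and 202 with Ptgs+/+ cells, from 77, 788 and 1541 UMIs. The UMI ratio of Ptgs-/- to untreated was 6.11 (4.83 to 7.82). Both tumour cultures were high. The gene was seen in 10.3% of untreated mDCs and 17.4% with Ptgs-/- cells, and at 5000 UMIs per cell in 6.67% and 13.8%. In cDC1, as a background, it was seen in 0.343% and 0.0944% of cells, at median depths of 8042 and 7900 UMIs against 9052.5 and 7318 in mDC.

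Other genes higher in mDC had smaller folds. Tnfsf9, the ligand of 4-1BB, a co-stimulatory receptor of T cells, averaged 47 CPM untreated, 104 with Ptgs-/- cells and 94 with Ptgs+/+ cells. Apoc2, a lipoprotein cofactor, averaged 101, 280 and 354 CPM, Traf4, a signalling adaptor, 31.3, 89.7 and 106 CPM, and Mpp7, a scaffold protein, 17.5, 67.3 and 43.8 CPM. All 4 were low in the untreated culture. The co-stimulation list had 1 of 8 compared members higher and 0 lower in mDC, with a median log2 fold of 0.64 and 6 above 0. Cd40, Cd80 and Cd86, which supply the second signal to T cells, had log2 folds of 0.68, 0.55 and 0.59, all within 2-fold.

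Markers of mature DCs stayed within 2-fold in mDC. Ccr7 averaged 854 CPM in untreated mDCs, 1131 with Ptgs-/- cells and 1478 with Ptgs+/+ cells. Fscn1, an actin-bundling protein of mature DCs, averaged 595, 474 and 538 CPM. Of 18 maturation and migration genes compared in mDC 0 were higher and 0 lower, with a median of 0.21. Ccl22, a chemokine for T cells, averaged 2115, 2407 and 3332 CPM and Ccl5, another one, 3192, 5049 and 3446 CPM. In cDC1 Ccl5 was lower with Ptgs-/- cells, at 45.3 CPM untreated and 14.3 with Ptgs-/- cells, but turned to 0.13 as a difference of mean log2 values. The NF-kB list had all 16 compared members above 0 in mDC, with 0 past 2-fold and a median of 0.35.

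Of the inflammatory cytokines compared, 0 were lower in any class, and each class median lay above 0. Few of the 17 members were compared. In cDC1 there were 3, with 1 below 0, and in pDC only 1, Vegfa. In mDC 1 of 5 was higher and all 5 lay above 0 (median 0.70). In proliferating cDC1 2 of 4 were higher (median 1.00), and in proliferating cDC2 0 of 4 were (median 0.06). Il1b in mDC averaged 125 CPM untreated, 159 with Ptgs-/- cells and 566 with Ptgs+/+ cells, and the UMI ratio of Ptgs-/- to untreated was 1.07 (0.935 to 1.23). In proliferating cDC1 Il1b averaged 10.7, 35.5 and 107 CPM, a log2 fold of 1.54 for Ptgs-/- over untreated. Vegfa, a growth factor for vessels, averaged 41.1, 126 and 119 CPM in cDC2 (ratio 2.85, 2.52 to 3.23) and 24.9, 69.2 and 102 CPM in cDC1. Il6 had 8 UMIs in untreated mDCs and 64 with Ptgs-/- cells and was not compared. Cxcl9, a chemokine induced by interferon-gamma, had at most 9 UMIs with Ptgs-/- cells in any class.

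Outside mDC, Ccl4, a chemokine that attracts T and NK cells, was higher in cDC1, cDC2 and proliferating cDC1. It averaged 11 CPM in untreated cDC1, 71.7 with Ptgs-/- cells and 74.8 with Ptgs+/+ cells (ratio 5.76, 4.76 to 7.01, for the first pair). In proliferating cDC1 the values were 16.3, 127 and 152 CPM, and in cDC2 13, 59.1 and 29.4 CPM. At 5000 UMIs per cell Ccl4 was seen in 3.66% of untreated cDC1s and 13.7% with Ptgs-/- cells. In cDC2 it was seen in 2.19% and 7.87%. With so few untreated cells holding it, the filter on detection favoured a difference. In mDC the untreated and Ptgs-/- cultures overlapped within counting error, at 71.9 and 68.4 CPM (ratio 1.11, 0.876 to 1.42). Cd83, a maturation marker, averaged 56.1, 190 and 204 CPM in cDC1 and 49.9, 206 and 236 CPM in proliferating cDC1.

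Cd274, which encodes the checkpoint ligand PD-L1, was higher in the same 3 classes. In cDC1 it averaged 5.75 CPM untreated, 22.1 with Ptgs-/- cells and 40.5 with Ptgs+/+ cells, and in cDC2 9.14, 32.5 and 36.8 CPM. The UMI ratios of Ptgs-/- over untreated were 3.36 (2.52 to 4.54) and 3.4 (2.61 to 4.47). At 5000 UMIs per cell Cd274 was seen in 2.16% of untreated cDC1s and 10.4% with Ptgs-/- cells. In cDC2 it was seen in 4.53% and 13.1%. With so few untreated cells holding it, the filter on detection favoured a difference. In proliferating cDC1 the log2 fold was 1.17. In mDC, where the level was higher throughout, the values were 168, 233 and 265 CPM, a log2 fold of 0.68.

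**Figure D3:**
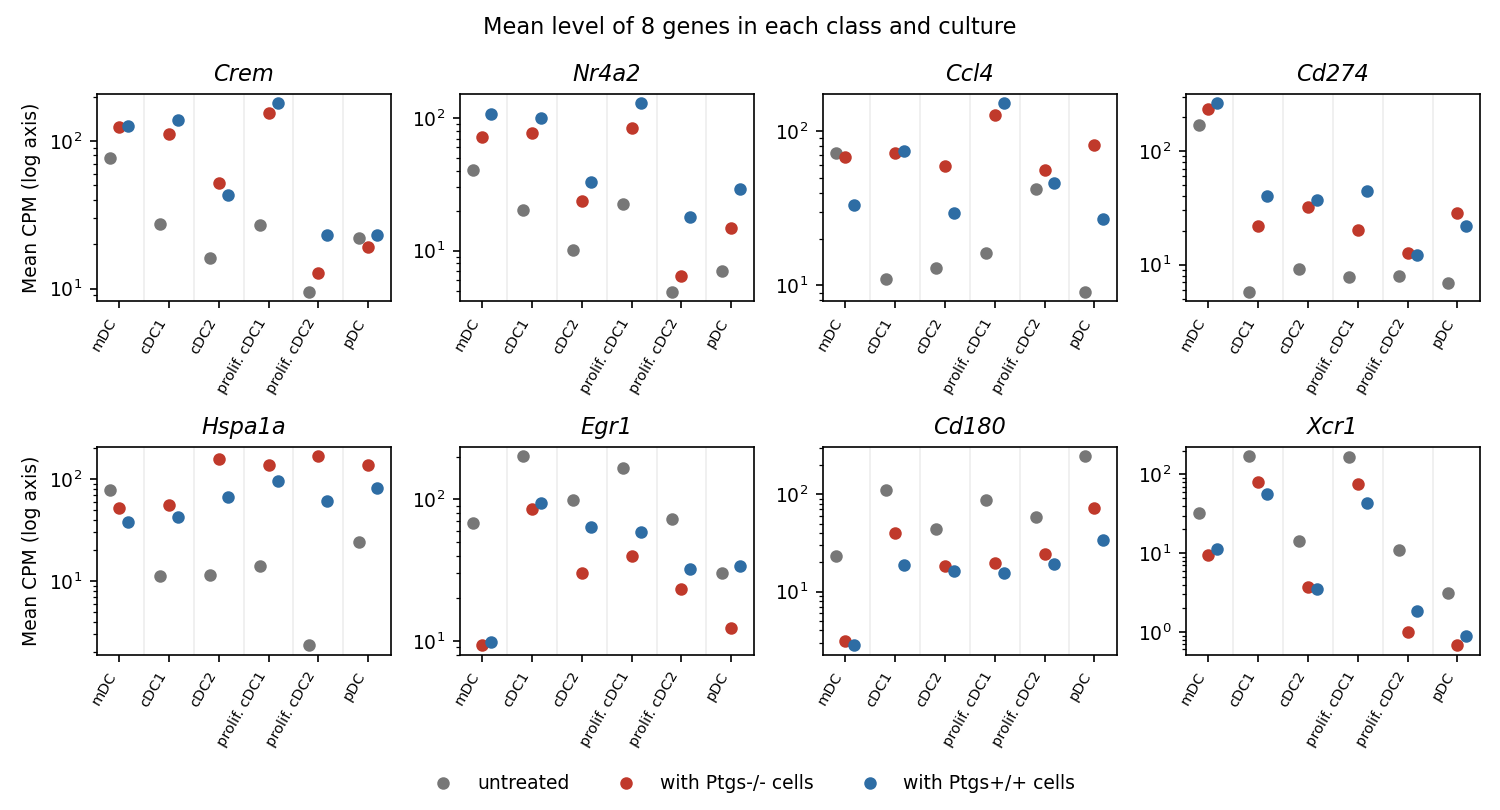
Mean CPM (log axis) of 8 genes in the 6 classes, with 1 point for each culture. Crem in cDC1 stood at 27.3 CPM untreated and at 112 and 138 CPM in the tumour cultures, while Cd180 was lower in both tumour cultures than untreated in every class.

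Hspa1a and Hspa1b, which encode inducible HSP70 proteins that bind unfolded protein, were higher in cDC2 and in both proliferating classes, and there the culture with Ptgs-/- cells stood above both others. In these 3 classes both genes passed the filter on detection only through the culture with Ptgs-/- cells. Such genes had to differ, so the counts below describe the list and support nothing beyond it. Of 12 heat shock genes compared in cDC2 3 were higher and 0 lower, and of 11 in each proliferating class 3 were higher and 0 lower, with medians of 0.42, 0.48 and 0.44. In mDC 0 of 11 passed either way (median 0.03), and 0 of 9 in cDC1 and 0 of 8 in pDC.

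Hspa1a in cDC2 averaged 11.5 CPM untreated, 159 with Ptgs-/- cells and 67.1 with Ptgs+/+ cells, with 120 against 1313 UMIs in the first pair (ratio 10.2, 8.49 to 12.5). In proliferating cDC2 it averaged 2.34, 168 and 60.5 CPM from 5, 396 and 147 UMIs, and in proliferating cDC1 13.9, 138 and 95.9 CPM. The culture with Ptgs-/- cells was the high one in all 3. In mDC the difference was within counting error, with 78 CPM untreated and 52.2 with Ptgs-/- cells (ratio 0.911, 0.729 to 1.14). In cDC1 Hspa1a averaged 11.2 and 55.9 CPM but was seen in under 10% of cells and was not compared. Hsph1, a co-chaperone of HSP70, passed the filter in the untreated culture too and averaged 14.7, 44.8 and 24.8 CPM in proliferating cDC1. Hspa1a and Hspa1b are near-identical copies, so the split of reads between them is uncertain.

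Their promoters are shown because the copies are also alike in the bases before the gene. These are RefSeq windows of 300 bases around the gene start from GRCm38.p6, at chr17:34972107-34972406 for Hspa1a and chr17:34959189-34959488 for Hspa1b, both on the minus strand and written 5′ to 3′, with the core of the heat shock element (GAANNTTC on either strand) in capitals.
Hspa1a: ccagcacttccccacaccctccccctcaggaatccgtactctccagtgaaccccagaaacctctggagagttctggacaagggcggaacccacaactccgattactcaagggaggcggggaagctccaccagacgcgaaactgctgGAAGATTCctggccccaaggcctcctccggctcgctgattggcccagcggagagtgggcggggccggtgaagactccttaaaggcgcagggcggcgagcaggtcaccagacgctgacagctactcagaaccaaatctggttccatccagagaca
Hspa1b: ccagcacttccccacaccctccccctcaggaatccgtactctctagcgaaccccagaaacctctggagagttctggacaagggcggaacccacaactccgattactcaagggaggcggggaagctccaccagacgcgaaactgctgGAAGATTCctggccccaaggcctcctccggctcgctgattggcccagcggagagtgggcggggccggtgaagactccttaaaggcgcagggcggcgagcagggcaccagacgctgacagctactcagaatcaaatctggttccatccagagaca
The windows were identical at 296 of 300 positions (98.7%), and each held 1 match. Of the 10 heat shock genes with a window, 8 (80%) held GAANNTTC, against 9.04% of all 27025 genes.

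Genes of low oxygen and glycolysis were above 0 for most members in every class, mostly within 2-fold. Of 17 members, 16 lay above 0 in cDC1, cDC2 and proliferating cDC1, 17 in pDC, 14 in proliferating cDC2 and 13 in mDC. The median log2 fold was 0.60 in pDC, 0.58 in proliferating cDC1, 0.40 in cDC2 and 0.32 in proliferating cDC2, beside medians of all genes at 0 by the shift or at -0.06 and -0.07 in the unshifted classes. Ero1l, which oxidises disulphides in the endoplasmic reticulum, averaged 68.2 CPM in untreated pDC, 236 with Ptgs-/- cells and 269 with Ptgs+/+ cells (ratio 2.44, 1.91 to 3.14). Ndrg1, a hypoxia-induced gene, averaged 43.7, 108 and 154 CPM in pDC. Hilpda, which is induced by hypoxia and blocks fat breakdown, averaged 31.4, 120 and 183 CPM in proliferating cDC1. The core ACGTG was in the windows of 12 of 15 list genes (80%), against 21.8% of all genes. Ero1l and Ndrg1 were not among the 12.

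Most genes of the apoptosis list stayed within 2-fold. Of 14 compared in cDC1, 1 was higher, 0 lower and 13 above 0, beside 1.27% of all genes higher. In pDC 2 of 11 were higher, 0 lower and 11 above 0, beside 1.34% of all genes higher. In mDC, cDC2 and both proliferating classes 1 was higher and 0 lower in each. Cdkn1a, the cyclin-dependent kinase inhibitor p21, averaged 125 CPM in untreated cDC1, 287 with Ptgs-/- cells and 412 with Ptgs+/+ cells, and 60.6, 208 and 256 CPM in pDC. Pmaip1, which encodes the pro-apoptotic protein NOXA, averaged 26, 73.7 and 82.6 CPM in pDC. Bbc3, which encodes PUMA, averaged 12.2, 42.6 and 32.4 CPM in proliferating cDC2. The untreated culture was the low one for each. Of the integrated stress and unfolded protein response list, 1 of 12 was higher and 0 lower in mDC (median -0.24), and 1 was higher and 1 lower of 14 in proliferating cDC2. In cDC2 2 of 12 were higher, 0 lower and 11 above 0 (median 0.41). In proliferating cDC1 2 of 12 were higher, 0 lower and 10 above 0 (median 0.19). In cDC1 1 of 12 was higher (median 0.08) and in pDC 2 of 10 were (median 0.01), with 0 lower in each. Tiparp, an ADP-ribosyltransferase of no list here, averaged 34.2, 93.2 and 116 CPM in cDC1.

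Immediate-early genes went both ways in proliferating cDC1, and also in cDC1, cDC2 and mDC. In proliferating cDC1 Atf3, a stress-induced repressor, was higher. Egr1 and Egr3, zinc finger factors downstream of growth signals, were lower there. Atf3 in proliferating cDC1 averaged 29.3 CPM untreated, 155 with Ptgs-/- cells and 140 with Ptgs+/+ cells (ratio 5.08, 4.52 to 5.71). Egr1 in the same class averaged 167, 39.7 and 58.5 CPM (ratio 0.261, 0.23 to 0.294), and Egr3 28.1, 1.54 and 10.7 CPM (ratio 0.0694, 0.0375 to 0.118). Egr3 passed the filter on detection there only through the untreated culture, so it had to differ. In mDC Egr1 averaged 68.6, 9.3 and 9.86 CPM. The AP-1 and immediate-early list had 2 higher and 2 lower of 16 in proliferating cDC1, and 1 higher and 2 lower of 17 in cDC2. It had 1 higher and 2 lower of 16 in cDC1, and 1 higher and 1 lower of 15 in mDC. In proliferating cDC2 0 were higher and 3 lower of 17, with 12 below 0 and a median of -0.36.

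Interferon-induced transmembrane genes were higher in cDC1. Ifitm2, a restriction factor against virus entry, averaged 768 CPM in untreated cDC1, 2403 with Ptgs-/- cells and 3653 with Ptgs+/+ cells (ratio 2.87, 2.79 to 2.94). Its neighbour in the family Ifitm1, named after its values were seen, averaged 3696, 9942 and 19433 CPM there. Members of this family are similar in sequence, so how reads were split between them is uncertain. Both tumour cultures stood above the untreated culture. Other genes that type I interferon induces differed less. Isg15, a ubiquitin-like modifier, averaged 107, 227 and 323 CPM in mDC, and 101, 185 and 178 CPM in cDC1. Of 7 list members compared in cDC1 1 was higher, 0 were lower and 7 lay above 0 (median 0.59). In proliferating cDC2 1 of 9 was higher and all 9 were above 0 (median 0.52). In pDC 1 of 8 was higher, 4 lay above and 4 below 0, and the median was 0.05, or -0.41 with Ptgs+/+ cells.

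The interferon-gamma list had a median below 0 in each class but pDC. In mDC 1 of 10 was lower, 0 were higher and 8 lay below 0 (median -0.54), beside 1.87% of all genes lower. In cDC1 1 of 10 was higher, Cd274, and 0 lower (median -0.04), beside 1.27% of all genes higher. Medians were -0.23 in cDC2, -0.20 in proliferating cDC1, -0.16 in proliferating cDC2 and 0.32 in pDC, where 4 were compared. In mDC Gbp7, a guanylate-binding protein, averaged 26.7 CPM untreated, 7.45 with Ptgs-/- cells and 9.84 with Ptgs+/+ cells. Ifng itself had 0 UMIs in either culture in 5 classes and 1 UMI in pDC with Ptgs-/- cells. Markers of NK and T cells summed to at most 6.09 CPM in either culture outside pDC, where they were 42.2 and 37.1 CPM.

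The summed level of cDC1 markers was lower with Ptgs-/- cells than untreated in all 6 classes, and lower again with Ptgs+/+ cells in each class but mDC, where the sums were 1407, 874 and 915 CPM. In proliferating cDC1 2 of 10 were past 2-fold and all 10 lay below 0, and in cDC1 0 of 10 passed and 9 lay below 0. The lowest median was in mDC, with 5 of 9 lower, 0 higher and a median of -1.15. The part of this in the other gene differences of mDC, such as Il12b, Egr1 and Ccr2, was not tested. The 10 cDC1 markers summed to 4547 CPM in untreated cDC1, 3195 with Ptgs-/- cells and 2221 with Ptgs+/+ cells, and to 4061, 2194 and 1313 CPM in proliferating cDC1. Xcr1, the chemokine receptor that marks cDC1s, averaged 170, 81.1 and 56 CPM in cDC1, with 1674 against 709 UMIs in the first pair. Clec9a, a receptor for dead cells, averaged 145, 105 and 93.9 CPM. Wdfy4, needed for cross-presentation, averaged 446, 205 and 116 CPM in proliferating cDC1 (ratio 0.477, 0.45 to 0.504). In mDC Wdfy4 averaged 109, 33.8 and 22.1 CPM.

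The list of C-type lectins and pattern receptors, whose ligands include microbial products and dead cells, had medians below 0 in all 6 classes. In pDC 0 of 5 compared members were higher, 2 were lower and all 5 lay below 0 (median -0.72). The lower ones were Cd209a and Clec9a. In mDC 2 of 8 were lower (median -0.52) and in proliferating cDC2 2 of 8 (median -0.37), with 0 higher in each. Tlr3, a sensor of double-stranded RNA, averaged 99 CPM in untreated proliferating cDC1, 32.7 with Ptgs-/- cells and 20.2 with Ptgs+/+ cells (ratio 0.317, 0.274 to 0.366). Cd180 averaged 247, 73.2 and 34.3 CPM in pDC and 112, 40.1 and 18.6 CPM in cDC1. Ccr2, a receptor for monocyte chemokines, averaged 62.5, 11.8 and 8.87 CPM in mDC.

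Some lipid genes were lower in cDC1, proliferating cDC1 and mDC. Of 8 lipid uptake and storage genes compared in proliferating cDC1 3 were lower, 0 higher and 0 above 0 (median -0.82), and in cDC1 1 of 8 was lower with 0 above 0 (median -0.65). In mDC 3 of 8 were lower, 0 higher and 2 above 0 (median -0.22). Plin2, which coats lipid droplets, averaged 48.7 CPM in untreated proliferating cDC1, 9.48 with Ptgs-/- cells and 10.1 with Ptgs+/+ cells (ratio 0.207, 0.161 to 0.264). In the same class Fasn, fatty acid synthase, averaged 58.1, 22 and 29.4 CPM, and Cd36, a fatty acid receptor, 53, 19.1 and 9.17 CPM. The untreated culture was the high one for all 3.

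Some cell cycle genes were lower in cDC1, mDC and cDC2. Mcm3 is a subunit of the replication helicase and is outside the cell cycle list. In cDC1 it averaged 51.2 CPM untreated, 12.7 with Ptgs-/- cells and 8.24 with Ptgs+/+ cells (ratio 0.249, 0.203 to 0.304). In cDC2 it averaged 28.9, 8.8 and 8.27 CPM. The cell cycle list had 2 of 9 members lower and 0 higher in cDC1 (median -0.74) and 3 of 9 lower in mDC (median -0.80). In cDC2 1 of 8 was lower, Mcm5, and 3 lay above 0 (median -0.33). Of 3 proliferation markers compared there 0 were lower (median 0.08). In proliferating cDC1 0 of 16 passed either way (median -0.03). The 9 proliferation markers summed to 194 CPM in untreated cDC1 and 109 with Ptgs-/- cells, and whether this reflects the annotation's borders was not tested.

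**Figure D4:**
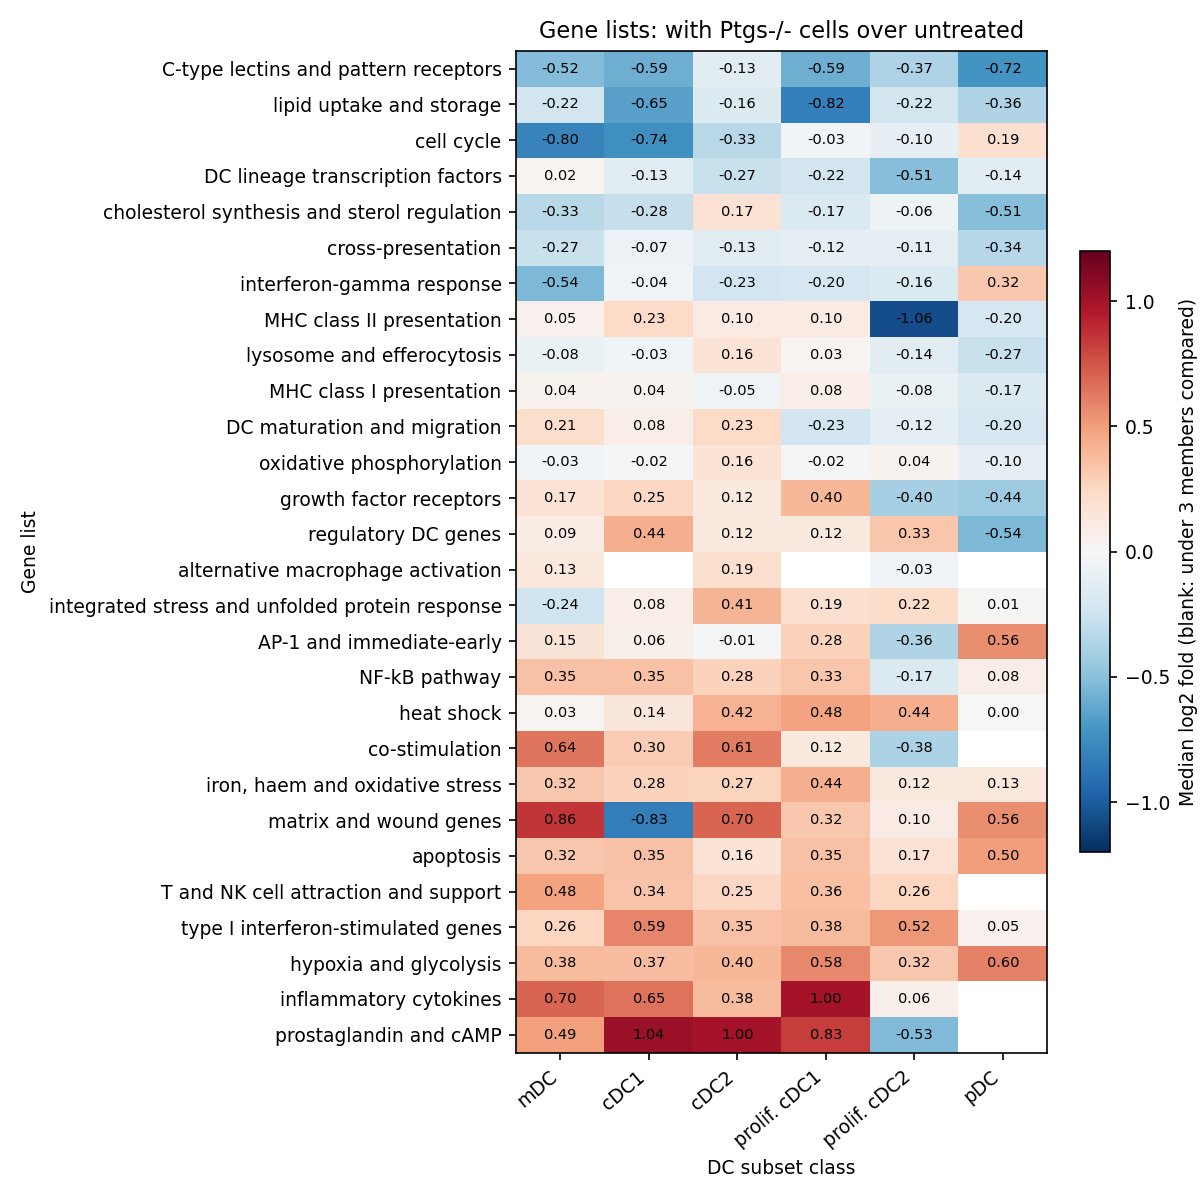
Median log2 fold of the compared members of each gene list, with Ptgs-/- cells over untreated, by class (blank: under 3 members compared). The lowest median was -1.06 for MHC class II in proliferating cDC2, and the prostaglandin and cyclic AMP list reached 1.04 in cDC1.

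The class named proliferating cDC2 had the highest share of lower genes of the 6 classes. All 13 MHC class II presentation genes lay below 0, with 7 lower and 0 higher (median -1.06), while in cDC2 0 of 13 passed either way (median 0.10). Cd74, the invariant chain, averaged 6794 CPM untreated, 3091 with Ptgs-/- cells and 3638 with Ptgs+/+ cells (ratio 0.49, 0.477 to 0.502). Ciita, the master regulator of MHC class II, averaged 155, 52.4 and 52.5 CPM, and H2-Ab1 3030, 1360 and 1430 CPM. Both tumour cultures were low. Ccl17, a chemokine for T cells, averaged 387, 65.4 and 95.4 CPM there (ratio 0.206, 0.179 to 0.237).

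In the same class 3 of 15 transcription factors of the DC lineage were lower and 0 higher (median -0.51). Id2, needed for cDC1s, averaged 334 CPM untreated, 96.3 with Ptgs-/- cells and 142 with Ptgs+/+ cells, Klf4 49.1, 14.1 and 18.6 CPM, and Irf4, which drives cDC2s, 31.6, 12.2 and 19.3 CPM. Progenitor markers went both ways, with 2 higher and 1 lower of 4 compared. Prtn3, a granule protease of early myeloid cells, averaged 32, 153 and 230 CPM (ratio 6, 4.55 to 8.05), and Ctsg, with 2 UMIs untreated and 143 with Ptgs-/- cells, had a ratio of 44.6 (12.1 to 372). Ctsg passed the filter on detection only through the culture with Ptgs-/- cells. Kit, the stem cell factor receptor, was the lower one, at 21.5, 7.81 and 22.3 CPM. Of 7 monocyte markers compared 3 were higher, among them Plac8 at 1126, 2367 and 2012 CPM, and 1 was lower, Fcgr1 at 24.1, 8.22 and 12.9 CPM. The summed progenitor markers were 80, 261 and 455 CPM, and the monocyte markers 1726, 3170 and 2870 CPM. These marker levels moved with the comparison, and their part in the lower MHC class II values was not tested.

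In pDC the higher genes included Il12a, the p35 subunit of IL-12, at 12.9 CPM untreated, 66.9 with Ptgs-/- cells and 52.3 with Ptgs+/+ cells (ratio 4.12, 2.33 to 7.85). Oas3, an RNA-activated antiviral enzyme, averaged 4.59, 28.1 and 17.8 CPM from 4 and 38 UMIs in the first pair. It passed the filter on detection in pDC only through the culture with Ptgs-/- cells, so it had to differ. Cystm1 averaged 6.8, 43.5 and 56.3 CPM. Il12a and Cystm1 were also low in untreated pDC, so the filter on detection favoured a difference for both. Of the 10 pDC markers 2 were lower, 0 higher and 9 below 0. Ccr9, a gut-homing receptor, averaged 411, 193 and 153 CPM, Siglech 1179, 658 and 509 CPM, and the 10 pDC markers summed to 10731, 8284 and 7488 CPM. pDC had the fewest UMIs, with medians of 4082.5 and 3711.5 per cell, so its values rest on the smallest counts.

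S100a8 and S100a9, the calprotectin subunits that neutrophils hold in bulk, went in different directions by class. S100a9 in mDC averaged 386 CPM untreated, 36.7 with Ptgs-/- cells and 82.9 with Ptgs+/+ cells, and in pDC 939, 2398 and 6637 CPM. Taken as a difference of mean log2 values, S100a9 turned its direction in mDC, to 0.15. Cells that held a UMI of another lineage, S100a8 among the genes that define it, were also left out. No S100a8 then remained in mDC, so its value of 0.23 is only the shift of the median. S100a9 was at 0.19 there, on the same shifted scale. The 8 neutrophil markers summed to 869 and 74 CPM in mDC and to 1811 and 3994 CPM in pDC.

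Several lists were level. Oxidative phosphorylation had 0 of 18 members higher and 0 lower in each class, with medians between -0.10 and 0.16. MHC class I presentation had 0 higher and 0 lower in each class, with medians between -0.17 and 0.08. B2m, its light chain, averaged 775 CPM in untreated cDC1, 955 with Ptgs-/- cells and 882 with Ptgs+/+ cells. Ifnar1, the type I interferon receptor, averaged 58.7, 84.1 and 74.9 CPM there and stayed within 2-fold in all 6 classes.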

How the data were processed

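Per the submitters' processing notes, Cell Ranger 3.0.2, Partek and the build mm10 were used; their settings and the filters on cells are not given in the sources used here. The authors deposited log2 values per cell. From the values these are log2(CPM + 1), since the CPM total of each of 10812 cells was within 0.00173% of its nominal sum. UMIs were recovered as multiples of a cell's commonest value above 0, and 99.94% of values came out whole (within 0.1 UMI or 0.01%). No UMIs are given for 16 symbols that held parts of a UMI. Hashtag condition and class are the authors' annotation, and doublets were not called again. Mean CPM was compared by class with a pseudocount of 5 CPM, as the text states, with Python 3.11.15, numpy 2.4.6 and scipy 1.17.1. UMI ratios have exact conditional binomial intervals, shares exact Clopper-Pearson intervals, and the share ratios have 95% intervals from their logarithms. Named genes were the 6 highest and 6 lowest of a class, up to 4 members of a list by absolute fold, up to 12 genes each way past 2-fold in the most classes, and a set list. Haemoglobin, mitochondrial, ribosomal protein and antigen receptor genes and symbols with parts of a UMI were left out of the highest and lowest. Markers, leading genes of a class and genes past 2-fold both ways are named beside this rule, after their values were seen. The members, the 28 gene lists and the 15 marker lists were chosen with earlier results of these data known. The scripts were tested on simulated data. Each gene count was recomputed under 10 alternatives.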

Additional observations from a re-analysis of the deposited data

Results flagged for a closer look

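Genes past 2-fold in opposite directions in different classes were picked out, and with 1 culture a condition these differences between classes were not tested. S100a9 had log2 folds of -3.00 in mDC, 1.18 in cDC1 and 1.35 in pDC for Ptgs-/- over untreated. Ccl5, a chemokine for T cells, had -1.22 in cDC1, where it averaged 45.3 CPM untreated and 14.3 with Ptgs-/- cells, and 1.46 in proliferating cDC2, where it averaged 52.1 and 152 CPM. Snn and AI506816 are named only for this pattern, after their values were seen. Snn had 1.15 in mDC and -1.39 in pDC, and AI506816 -1.27 in mDC and 1.24 in pDC.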

How the results depend on the processing

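All ratios of class shares kept their direction under the alternatives tried, and each moved by less than its interval. Of 151 named gene and class pairs past 2-fold, between 149 and 151 kept their direction under each of the 10 alternatives, but only 93 stayed past 2-fold with a pseudocount of 20 CPM and 103 as differences of mean log2 values. Of 32 list medians past 0.5, 27 kept their direction at 5000 UMIs, 29 with no filter on detection, 31 from 5% of cells and all 32 under the other alternatives. As differences of mean log2 values, the gene exceptions were S100a9 in mDC (0.15) and Ccl5 in cDC1 (0.13). Without cells that held another lineage's marker, they were S100a8 (0.23) and S100a9 (0.19) in mDC. That step removes cells with S100a8 by construction, so the 0.23 is only the shift of the median and no level of S100a8. At 5000 UMIs the exception was Rgs1 in pDC (-0.37), with 53 untreated and 72 Ptgs-/- cells left. Counts that moved by over 1.5 times are given as higher and lower genes. With 1 CPM added, higher genes were 79 in mDC, 80 in cDC2, 122 in proliferating cDC1 and 118 in proliferating cDC2, and lower genes 258 in mDC, 64 in cDC1, 43 in cDC2, 87 in proliferating cDC1, 375 in proliferating cDC2 and 109 in pDC. With 20 CPM added, higher and lower genes were 9 and 17 in mDC, 32 and 5 in cDC1, 13 and 3 in cDC2, 35 and 14 in proliferating cDC1, 17 and 31 in proliferating cDC2 and 18 and 9 in pDC. With the other choice of centring they were 12 and 259 in mDC, 49 and 54 in cDC1, 34 and 35 in cDC2 and 49 and 80 in proliferating cDC1. As differences of mean log2 values, higher genes were 115 in cDC1, 156 in proliferating cDC1 and 109 in proliferating cDC2, and lower genes 180 in mDC, 133 in cDC1, 128 in cDC2, 280 in proliferating cDC1, 283 in proliferating cDC2 and 124 in pDC. From 5% of cells, higher genes were 79 in mDC and 135 in pDC, and lower genes 149 in pDC. With no filter on detection, higher genes were 50 in proliferating cDC1, 84 in proliferating cDC2 and 291 in pDC, and lower genes 214 in mDC, 55 in cDC1, 38 in cDC2, 82 in proliferating cDC1 and 266 in pDC. With cells weighted by depth 28 were higher in mDC, without cells of another lineage 89 were higher in proliferating cDC2, and at 5000 UMIs 354 were higher and 359 lower in pDC. Beyond what an alternative does by construction, the cause was not tested. No paired analysis was possible because each condition was 1 culture.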
